A study of Homo sapiens with 12 samples.

Results

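The ATG8 family of autophagy genes and the cargo receptor gene SQSTM1 were followed in pancreatic ductal adenocarcinoma (PDAC) cells depleted of either of a pair of splicing factors. Members were the genes whose symbol was MAP1LC3A, MAP1LC3B, MAP1LC3B2, MAP1LC3C, GABARAP, GABARAPL1, GABARAPL2 or SQSTM1, and all 8 were found among the 48114 genes listed. The family was chosen by a reading of these same knockdown results, so its values are given as a description with no test. Tests and p-values are given only for other genes. A closing count of members at an adjusted p under 0.05 is a description too. PANC-1 cells, which the study uses as a basal-like PDAC line, were transfected with a control siRNA (siCtrl), siRNAs against QKI (siQKI) or siRNAs against RBFOX2 (siRBFOX2), the last 2 at 40 nM, and RNA was collected after 48 h. HPAF-II cells, used as a line of the classical subtype, received siCtrl according to the sample labels. Each of the 4 groups had 3 libraries, described as biological replicates of 1 line each, so the spread between libraries is the spread of cultures of that line.

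ATG8 proteins are small ubiquitin-like proteins that become attached to phosphatidylethanolamine in the growing autophagosome membrane. ATG4 proteases first trim the newly made protein to expose a glycine, and ATG7, ATG3 and the ATG12-ATG5-ATG16L1 complex then act in sequence to join that glycine to the lipid. In human cells the family has an LC3 branch (MAP1LC3A, MAP1LC3B, MAP1LC3B2 and MAP1LC3C) and a GABARAP branch (GABARAP, GABARAPL1 and GABARAPL2). Both branches bind cargo receptors such as p62, the product of SQSTM1, which is itself degraded by autophagy and also holds KEAP1, the repressor of NRF2.

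The ends of the 7 reading frames are shown because they carry the residue that makes these proteins members of the family, and because they show how alike the genes are to a read aligner. The sequences were read from the principal GENCODE v29 transcripts (GRCh38), run 5′ to 3′ along the coding strand, and have the codon of the glycine next to an aromatic residue in capitals.
MAP1LC3A (chr20:34559872-34559898, plus strand): gcctcccaggaaaccttcGGCttctga
MAP1LC3B (chr16:87403059-87403088, plus strand): gcctcccaggagacgttcGGGatgaaattg
MAP1LC3B2 (chr12:116576282-116576311, plus strand): gcctcccaggagacgttcGGGatgaaattg
MAP1LC3C (chr1:241996220-241996249, minus strand): gcctcccaggagacatttGGCtgcctggag
GABARAP (chr17:7240854-7240880, minus strand): agtgacgaaagtgtctacGGTctgtga
GABARAPL1 (chr12:10221826-10221852, plus strand): agtgatgagagtgtctatGGGaaatga
GABARAPL2 (chr16:75577343-75577369, plus strand): agcggagagaacacttttGGCttctga

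The glycine codon was followed by 1 further codon before the stop in MAP1LC3A, GABARAP, GABARAPL1 and GABARAPL2, by 5 in MAP1LC3B and MAP1LC3B2, and by 21 in MAP1LC3C. The frames of MAP1LC3B and MAP1LC3B2 differed at 2 of 378 bases, and their printed ends were the same. The next closest pair was GABARAP and GABARAPL1, with 76.8% of 354 aligned bases identical, and pairs from different branches shared 53.9% to 64.9%. Of all 150-base stretches (the length of a read) of the MAP1LC3B2 transcript, 30.9% also occurred in MAP1LC3B, against 6.22% of those of MAP1LC3B in MAP1LC3B2. The values of both genes are therefore uncertain in how reads were divided between them. A further 36.6% of the stretches of GABARAP were found in the gene model AC120057.2, while the other 5 members shared no such stretch with another gene.

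On hg38 the deposited files place MAP1LC3A at chr20:34546844-34560345, MAP1LC3B at chr16:87391800-87404776, MAP1LC3B2 at chr12:116559381-116576591 and MAP1LC3C at chr1:241995490-241999098. They place GABARAP at chr17:7240008-7242449, GABARAPL1 at chr12:10212830-10223130, GABARAPL2 at chr16:75566351-75577881 and SQSTM1 at chr5:179806393-179838078. Whether the counting used strand is not given in the sources used here, so reads in overlaps with neighbours could have been counted for either gene. SQSTM1 overlapped MRNIP by 3643 bases, but MRNIP had a mean of 2060 normalized counts in siCtrl cells against 381012 for SQSTM1. SQSTM1 also overlapped MGAT4B (57310 normalized counts in siCtrl cells) by 474 bases, MAP1LC3B overlapped FBXO31 by 322 and GABARAP overlapped PHF23 by 143. Gene models without a common symbol overlapped GABARAPL2 by 4642 bases (126 normalized counts in siCtrl cells), GABARAPL1 by 666 (11.96 in siCtrl, 26.3 in siQKI and 37.0 in siRBFOX2 cells, far below GABARAPL1 itself) and MAP1LC3B2 by 119 (listed at 0 in siCtrl cells). MAP1LC3A and MAP1LC3C overlapped no other listed gene.

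The deposited values are gene counts divided by a size factor for each library. Their sum per library was between 321834000 and 348181000 for PANC-1 and between 279777000 and 287233000 for HPAF-II, and the 10 highest genes held 9.72% to 15.6% of a library. The depth in sequenced fragments is unknown. Silencing was visible in both targets: QKI in siQKI cells had 19.7% of its siCtrl mean and RBFOX2 in siRBFOX2 cells 13.6%. RBFOX2 was also at 81.9% of its siCtrl mean in siQKI cells. Summed over 7 ductal epithelial markers, counts rescaled to a library total of 1000000 lay at 2385 to 2966 in PANC-1 libraries, against 11275 to 12117 for HPAF-II, and KRT7 (4.16) and CDH1 (2.87) were low in PANC-1 siCtrl cells. The 4 basal-like or mesenchymal markers had sums of 5153 to 5643 in PANC-1 libraries, against 12.4 to 31.8 in those of HPAF-II. VIM made up most of the PANC-1 sums (5422 in siCtrl cells, against 28.7 for ZEB1, 39.0 for CDH2 and 74.2 for QKI, itself a silenced gene). The 5 classical markers had sums of 229 to 264 in PANC-1 siCtrl libraries, most of it AGR2 (245), against 804 to 845 in those of HPAF-II. The 4 blood cell markers did not exceed 2.27 in sum in any library, nor the 5 fibroblast markers 5.46.

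Levels of different genes were compared per kilobase of principal transcript. In PANC-1 siCtrl cells SQSTM1 was highest, at 371 ± 17.8 rescaled counts per kilobase (SD, n = 3), followed by GABARAP at 191 ± 5.40. GABARAPL2 (50.0 ± 2.20) and MAP1LC3B (42.8 ± 1.96) came next, and GABARAPL1 (16.1 ± 1.14), MAP1LC3B2 (3.31 ± 0.447) and MAP1LC3A (2.18 ± 0.270) were lower. MAP1LC3C was close to the floor of the measurement at 0.0257 ± 0.0181. Neighbours in this order did not overlap between libraries, but the order depends on the length used. Over all annotated exons MAP1LC3B stood at 21.7 and GABARAPL2 at 16.5 rescaled counts per kilobase, and MAP1LC3A at 1.95 and MAP1LC3B2 at 1.24, so that both pairs changed places. SQSTM1 (145) and GABARAP (138) were then close, and their libraries overlapped. PANC-1 cells thus had GABARAP, rather than an LC3 gene, as the most abundant ATG8 transcript by either length.

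**Figure D1:**
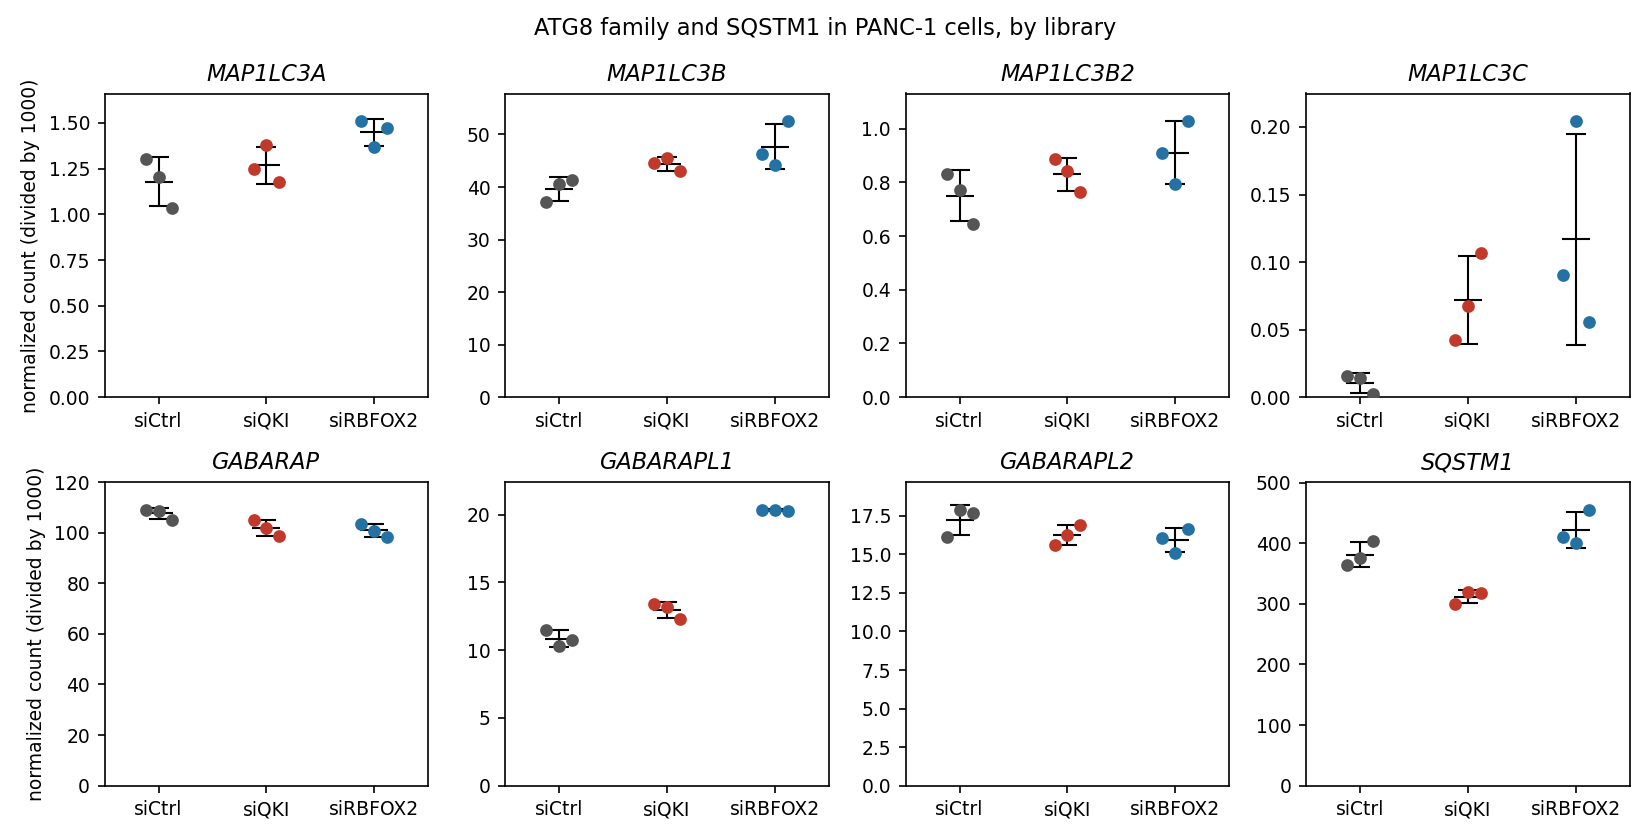
Normalized counts, divided by 1000 (vertical axes, each with its own scale from 0) of the 8 genes in the 3 PANC-1 groups; points are libraries, and black marks are the mean and SD of 3 libraries. GABARAPL1 in the siRBFOX2 libraries lies at 20264 to 20367, above all others, and SQSTM1 in the siQKI libraries at 299507 to 319310, below all others.

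In the LC3 branch, MAP1LC3B is the form most used as a marker of autophagosomes. Its normalized counts were 37074, 40488 and 41356 in the siCtrl libraries, 44614, 45476 and 42963 in the siQKI libraries and 46380, 44159 and 52549 in the siRBFOX2 libraries. All 6 knockdown libraries lay above all siCtrl libraries. The log2 difference from siCtrl was 0.16 (SE 0.06) with siQKI and 0.26 (SE 0.06) with siRBFOX2, and the siQKI and siRBFOX2 libraries overlapped each other.

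MAP1LC3B2, the near copy of MAP1LC3B, had 833, 773 and 646 normalized counts with siCtrl, 886, 841 and 762 with siQKI, and 911, 792 and 1028 with siRBFOX2. Its groups overlapped, with log2 differences of 0.15 (SE 0.14) and 0.28 (SE 0.14) close to those of MAP1LC3B. Without siCtrl replicate 3 they were 0.05 and 0.17. Counts from the stretches it shares with MAP1LC3B (30.9% of its 150-base stretches) cannot be told apart from misplaced reads of that gene.

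MAP1LC3A had 1301, 1204 and 1032 normalized counts in the siCtrl libraries, 1250, 1379 and 1180 in the siQKI libraries and 1510, 1368 and 1472 in the siRBFOX2 libraries. The siRBFOX2 libraries were above all siCtrl libraries, with a log2 difference of 0.30 (SE 0.11), whereas the siQKI libraries overlapped them, at 0.11 (SE 0.11). The siQKI value was 0.02 without siCtrl replicate 3.

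MAP1LC3C, an LC3 with a long tail beyond the glycine that is made in few cell types, had the widest range of the family. It was listed at 15.3, 14.0 and 2.01 normalized counts in the siCtrl libraries, at 42.2, 67.2 and 107 in the siQKI libraries and at 90.4, 204 and 55.6 in the siRBFOX2 libraries. All 6 knockdown libraries were above the highest siCtrl library, and the siQKI and siRBFOX2 libraries overlapped. The log2 differences were 2.92 (SE 0.74) with siQKI and 3.50 (SE 0.74) with siRBFOX2. These sizes lean on the lowest siCtrl library, and without that library, siCtrl replicate 3, they were 2.13 and 2.71. With a pseudocount of 10 in place of 1 they were 2.0 and 2.5. Even in siRBFOX2 cells MAP1LC3C made up 0.0630% of the summed ATG8 counts.

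In the GABARAP branch, GABARAPL1 stood apart. Its normalized counts were 11516, 10301 and 10751 in the siCtrl libraries, 13395, 13217 and 12260 in the siQKI libraries and 20363, 20367 and 20264 in the siRBFOX2 libraries. The 3 groups did not overlap, and siRBFOX2 cells had 187% of the siCtrl mean. The log2 difference from siCtrl was 0.26 (SE 0.05) with siQKI and 0.91 (SE 0.05) with siRBFOX2, so that siQKI was 0.65 (SE 0.05) below siRBFOX2 on the log2 scale.

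GABARAP, the most abundant ATG8 gene here, had 109094, 108629 and 105091 normalized counts with siCtrl, 105142, 101642 and 98787 with siQKI and 103474, 100804 and 98244 with siRBFOX2. The siRBFOX2 libraries lay just below the siCtrl libraries (log2 difference -0.09, SE 0.04), and the siQKI libraries overlapped them (-0.08, SE 0.04). After upper-quartile rescaling these were -0.06 and -0.02.

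GABARAPL2, also known as GATE-16, had 16102, 17902 and 17695 normalized counts with siCtrl, 15586, 16245 and 16909 with siQKI and 16040, 15116 and 16620 with siRBFOX2. Both knockdown groups overlapped the siCtrl group, at log2 differences of -0.08 (SE 0.05) and -0.11 (SE 0.05). GABARAP and GABARAPL2 were thus the steadiest members, with ranges of group means of 0.09 and 0.11 on the log2 scale against 0.91 for GABARAPL1 and 3.50 for MAP1LC3C.

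SQSTM1 was the member for which the knockdowns pointed in opposite directions. Its normalized counts were 363769, 375809 and 403458 in the siCtrl libraries, 299507, 319310 and 317067 in the siQKI libraries and 409817, 400824 and 455476 in the siRBFOX2 libraries. The siQKI libraries lay below all others, at 81.9% of the siCtrl mean (log2 difference -0.29, SE 0.05). The siRBFOX2 mean was 111% of siCtrl (log2 difference 0.15, SE 0.05), and the lowest siRBFOX2 library was below the highest siCtrl library. Without siRBFOX2 replicate 3, the highest library, that log2 difference was 0.09. Set directly against each other, siQKI was 0.43 (SE 0.05) lower than siRBFOX2 on the log2 scale, with no overlap.

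**Figure D2:**
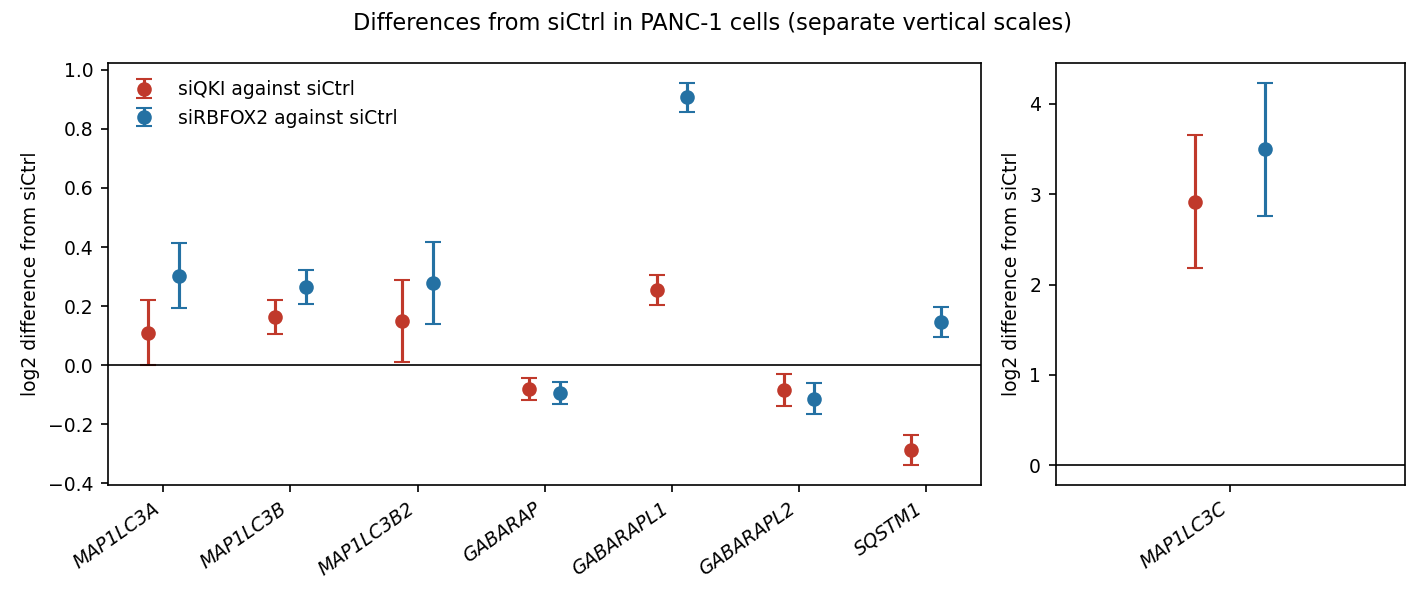
Log2 difference from siCtrl (vertical axes) of each gene in siQKI (red) and siRBFOX2 (blue) PANC-1 cells, with bars of 1 SE from the fit across all genes; MAP1LC3C has a panel and scale of its own. GABARAPL1 with siRBFOX2 stands at 0.91, and SQSTM1 has siQKI at -0.29 and siRBFOX2 at 0.15.

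Both knockdowns were compared with the same siCtrl libraries, so a shift in those libraries would appear in both. The siQKI and siCtrl libraries did not overlap for 4 of 8 members (MAP1LC3B, MAP1LC3C and GABARAPL1 higher, SQSTM1 lower), beside 44.7% of the 22544 genes that averaged 10 or more normalized counts. With siRBFOX2 this held for 5 of 8 (MAP1LC3A, MAP1LC3B, MAP1LC3C and GABARAPL1 higher, GABARAP lower), beside 37.9% of all genes. Between siQKI and siRBFOX2, GABARAPL1 and SQSTM1 were the 2 members without overlap, beside 35.2% of all genes. Nothing is read from these counts, since the family was chosen with these contrasts known. The median log2 difference of the 8 members was 0.13 with siQKI and 0.27 with siRBFOX2, and that of all genes 0.03 and 0.01.

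The makeup of the family follows from these values and does not depend on scaling between libraries. The 3 genes of the GABARAP branch held 76.5% ± 1.06 of the summed ATG8 counts in siCtrl cells, 73.8% ± 0.445 in siQKI cells and 73.2% ± 1.91 in siRBFOX2 cells (SD, n = 3). All 6 knockdown libraries, at 71.0% to 74.6%, were below the lowest siCtrl library at 75.6%. Within the branch, the share of GABARAPL1 was 6.13% ± 0.402 with siCtrl, 7.29% ± 0.178 with siQKI and 10.9% ± 0.252 with siRBFOX2, while that of GABARAP was 60.7% ± 1.25, 57.4% ± 0.678 and 53.9% ± 1.93. The share of MAP1LC3B was 22.4% ± 1.19, 25.0% ± 0.400 and 25.4% ± 1.89. These are shares of counts, in which longer transcripts weigh more.

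**Figure D3:**
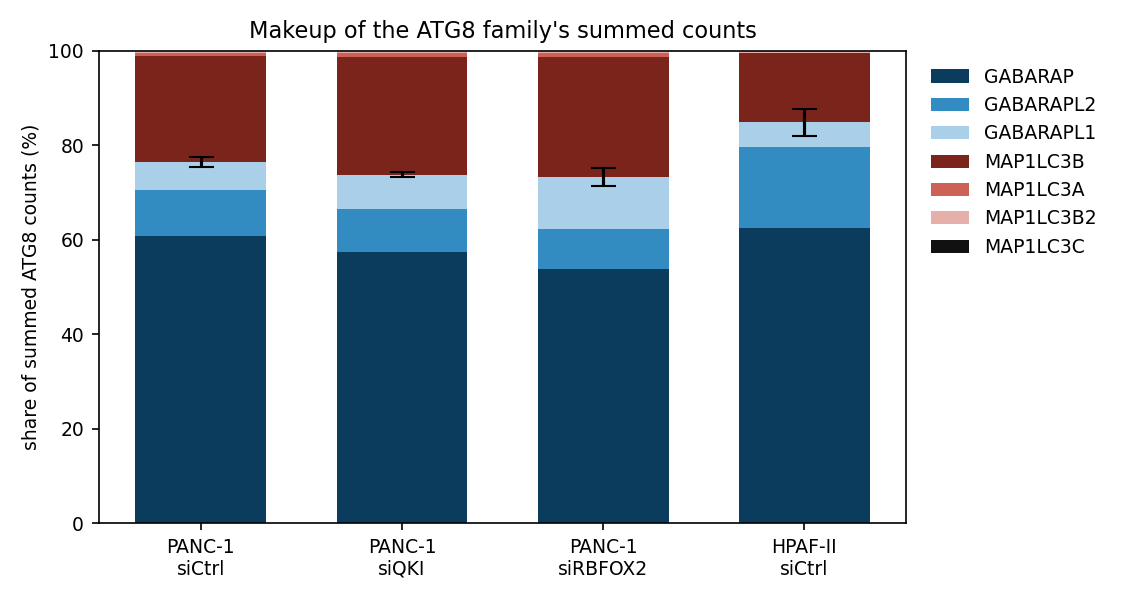
Share of the summed ATG8 counts in percent (vertical axis, from 0) held by each of the 7 ATG8 genes in each group, as means of 3 libraries; the black bars are the SD of the share of the GABARAP branch (blue colours). The light blue segment of GABARAPL1 is 6.13% with siCtrl and 10.9% with siRBFOX2, and HPAF-II cells have a larger GABARAPL2 segment (17.1%).

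The 2 members with the widest range over PANC-1 groups were set against the 15249 other genes that had a symbol and a mean of 50 or more. Genes without a symbol were left out. For GABARAPL1 the genes with the most similar pattern over the 9 libraries were ANKRD33B (Pearson r = 0.991, 15459, 19420 and 30557 normalized counts with siCtrl, siQKI and siRBFOX2), SEMA4F (r = 0.988) and ZC3H7B (r = 0.984), and 222 genes had r over 0.9. For MAP1LC3C they were SLC38A4-AS1 (r = 0.985), GDA (r = 0.985) and NLGN3 (r = 0.980), with 141 genes over 0.9. The 9 libraries of GABARAPL1 fall into 3 groups that do not overlap. Those of MAP1LC3C overlap between the knockdowns, so its r also follows differences between libraries of a group.

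To show where the pathway around the family stood, 73 further genes in 9 lists, from initiation to the lysosome, were taken from the limma fit across all genes (log2 of normalized count plus 1, Benjamini-Hochberg adjustment over the 22544 genes). With siQKI, 40 of 73 were past the threshold of 0.05, beside 33.0% of all genes tested, 7 higher and 33 lower, with a median log2 difference of -0.13 beside 0.03 for all genes. With siRBFOX2, 33 of 73 were past it, beside 26.5%, 13 higher and 20 lower, with a median of -0.03 beside 0.01. These genes are well expressed, 69 of them averaging 1000 or more normalized counts, and well expressed genes passed more often. At that level 40 of 69 pathway genes were called with siQKI, beside 54.0% of 11085 genes, and 33 of 69 with siRBFOX2, beside 45.0%. The median log2 difference of all genes at that level was -0.05 with siQKI and -0.04 with siRBFOX2. The lower calls made up 82.5% of the pathway calls with siQKI at that level, beside 61.9% of the calls of all such genes, and 60.6% with siRBFOX2, beside 61.6%. The share of calls in the lists was therefore near the share in all genes of like level, and no test of the direction was made.

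**Figure D4:**
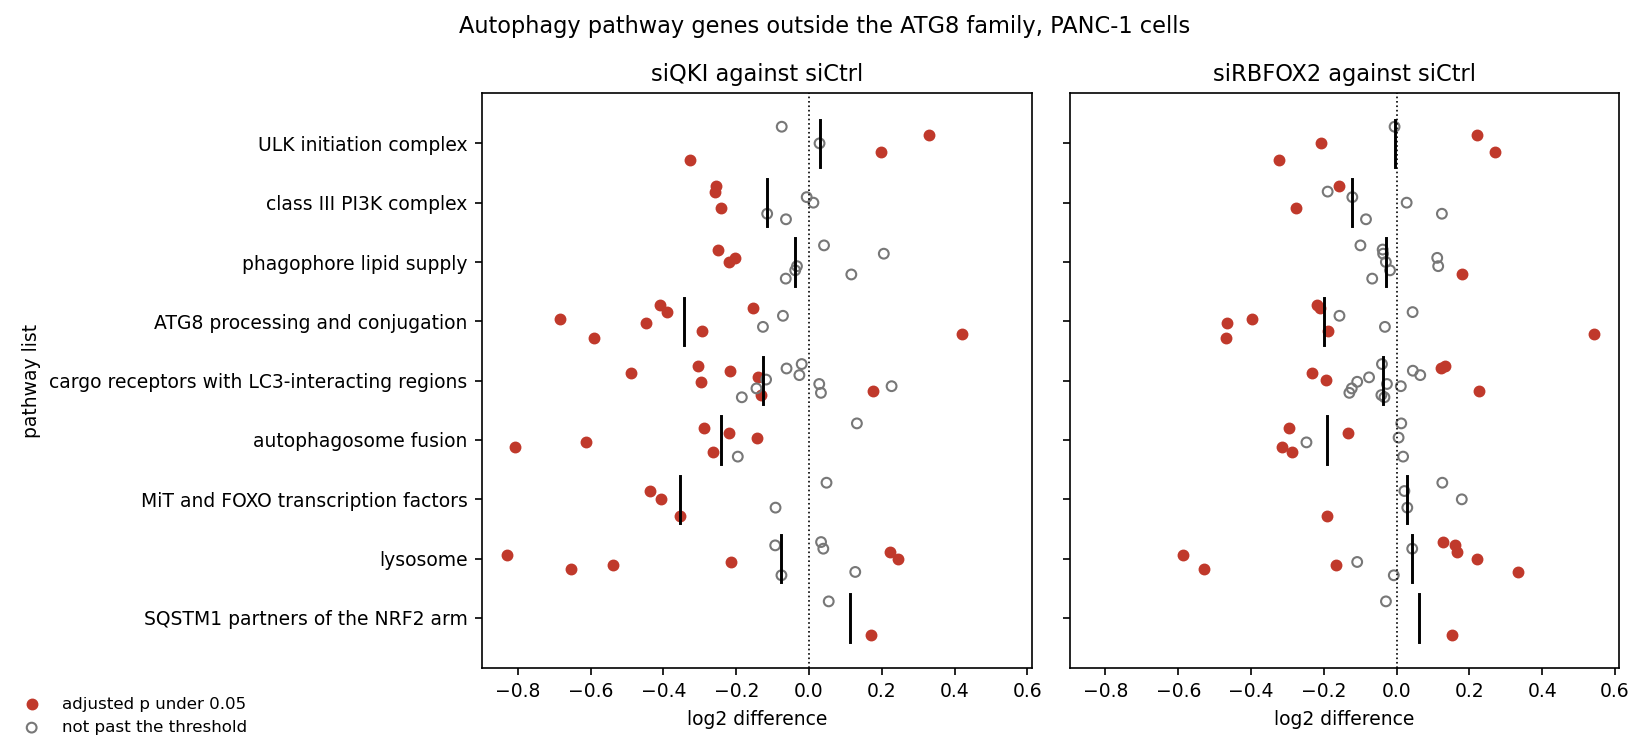
Log2 difference from siCtrl (horizontal axes) of the 73 pathway genes by list, for siQKI (left) and siRBFOX2 (right); filled red points are past an adjusted p of 0.05, open points are not, and black lines are list medians. With siQKI the 10 genes of ATG8 processing and conjugation have a median of -0.34, and ATG5 lies on the other side at 0.42.

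Of 10 genes for ATG8 processing and conjugation, which attach ATG8 proteins to the membrane, 7 fell and 1 rose with siQKI (median log2 difference -0.34), and 6 fell and 1 rose with siRBFOX2 (-0.20). Of all genes averaging 1000 or more, 33.4% were called lower with siQKI and 27.7% with siRBFOX2. These shares also stand beside the counts of the lists that follow, and no list was tested against them. ATG7, the E1-like enzyme that activates ATG8 proteins, fell from 14490 ± 1043 to 9016 ± 693 normalized counts with siQKI (SD, n = 3; log2 difference -0.68, limma adjusted p = 5.12e-06). It also fell with siRBFOX2 (-0.40, limma adjusted p = 0.00109). ATG16L1, which directs conjugation to the membrane, fell with siQKI (-0.59, limma adjusted p = 1.05e-07) and with siRBFOX2 (-0.47, limma adjusted p = 2.13e-06). ATG5, its partner in the same complex, rose from 15725 ± 504 to 22911 ± 726 normalized counts with siRBFOX2 (0.54, limma adjusted p = 3.13e-07) and was also past the threshold with siQKI (0.42, limma adjusted p = 1.83e-06). Between siQKI and siRBFOX2, 3 of these 10 genes were past the threshold, all lower with siQKI.

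Upstream, calls in the ULK initiation complex went both ways. ULK2, a kinase that starts autophagy, rose with siQKI (log2 difference 0.33, limma adjusted p = 1.06e-04) and siRBFOX2 (0.22, limma adjusted p = 0.00379). ATG101, a subunit of the same complex, fell with siQKI (-0.33, limma adjusted p = 6.18e-05) and siRBFOX2 (-0.32, limma adjusted p = 1.19e-04). ATG13 rose with siRBFOX2 (0.27, limma adjusted p = 5.59e-04) and siQKI (0.20, limma adjusted p = 0.00426). Of 7 genes of the class III PI3K complex, 3 fell with siQKI and 2 with siRBFOX2. With siQKI these were BECN1 (-0.26, limma adjusted p = 4.48e-04), PIK3C3 (-0.26, limma adjusted p = 0.0123) and UVRAG (-0.24, limma adjusted p = 0.0141). With siRBFOX2 they were UVRAG (-0.28, limma adjusted p = 0.00798) and BECN1 (-0.16, limma adjusted p = 0.0174). Of 9 genes for lipid supply to the phagophore, 3 fell with siQKI, led by ATG2A (-0.25) and WIPI2 (-0.22), and 1, VMP1, rose with siRBFOX2 (0.18, limma adjusted p = 0.0106). Calls in this stretch of the pathway were small and some rested on single libraries. PIK3C3 was no longer past the threshold without siCtrl replicate 2 (-0.23) or siQKI replicate 1 (-0.19), and VMP1 without siCtrl replicate 1 (0.13). BECN1 with siRBFOX2 lost its call without siCtrl replicate 1 (-0.13), siCtrl replicate 2 (-0.16) or siRBFOX2 replicate 1 (-0.15).

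Among 16 cargo receptors with LC3-interacting regions, the class to which p62 belongs, 6 fell and 1 rose with siQKI, and 2 fell and 3 rose with siRBFOX2. TOLLIP, an adaptor for ubiquitinated cargo, fell with siQKI (log2 difference -0.49, limma adjusted p = 8.66e-07) and siRBFOX2 (-0.23, limma adjusted p = 0.00129). OPTN, a receptor in mitophagy, fell with siQKI (-0.30, limma adjusted p = 2.52e-05) and rose with siRBFOX2 (0.13, limma adjusted p = 0.0212). CCPG1, a receptor for endoplasmic reticulum, rose with siRBFOX2 (0.23, limma adjusted p = 0.0162). It was also past the threshold with siQKI (0.18, limma adjusted p = 0.0492), where its libraries overlapped those of siCtrl. OPTN was 0.44 lower in siQKI than in siRBFOX2 cells on the log2 scale (limma adjusted p = 1.68e-06). Of the NRF2 arm, which p62 reaches through KEAP1, NFE2L2 (the gene of NRF2) rose with siQKI (0.17, limma adjusted p = 0.00997) and siRBFOX2 (0.15, limma adjusted p = 0.0247), and KEAP1 was at 0.05 and -0.03, neither past the threshold. NFE2L2 was not past the threshold with siQKI without siCtrl replicate 1 (0.14) or siQKI replicate 3 (0.15), nor with siRBFOX2 without siCtrl replicate 1 (0.12), siCtrl replicate 2 (0.14), siRBFOX2 replicate 1 (0.16) or siRBFOX2 replicate 2 (0.13). CCPG1 with siRBFOX2 lost its call without siCtrl replicate 1 (0.20) or siRBFOX2 replicate 2 (0.20).

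Downstream, 6 of 8 fusion genes fell with siQKI and 4 of 8 with siRBFOX2. PLEKHM1, an adaptor between autophagosomes and lysosomes, fell with siQKI (log2 difference -0.81, limma adjusted p = 1.92e-06) and siRBFOX2 (-0.31, limma adjusted p = 0.00898). EPG5 fell with siQKI (-0.61, limma adjusted p = 7.32e-04). The SNARE gene SNAP29 fell with siRBFOX2 (-0.30, limma adjusted p = 5.42e-05) and siQKI (-0.29, limma adjusted p = 4.06e-05). The PLEKHM1 call with siRBFOX2 was lost without siCtrl replicate 3 (-0.22). Of 11 lysosomal genes, 4 fell and 2 rose with siQKI, and 3 fell and 5 rose with siRBFOX2. The protease gene CTSL fell with siQKI (-0.83, limma adjusted p = 4.62e-08) and siRBFOX2 (-0.59, limma adjusted p = 2.89e-06), as did the proton pump gene ATP6V1H (-0.66, limma adjusted p = 5.37e-07, and -0.53, limma adjusted p = 8.06e-06).

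Of the 5 transcription factors of autophagy genes, 3 fell with siQKI. They were TFE3 (log2 difference -0.44, limma adjusted p = 1.51e-06), MITF (-0.41, limma adjusted p = 2.88e-04) and FOXO3 (-0.36, limma adjusted p = 6.77e-04). With siRBFOX2, FOXO3 was past the threshold (-0.19, limma adjusted p = 0.0465), TFE3 was at 0.02 and MITF at 0.18. The FOXO3 call with siRBFOX2 was lost under 11 of 17 alternatives. Among them were leaving out any siCtrl or siRBFOX2 library or siQKI replicate 2 (-0.21 to -0.17). Between siQKI and siRBFOX2, TFE3 (-0.46, limma adjusted p = 2.22e-06) and MITF (-0.59, limma adjusted p = 2.07e-05) differed. Over all lists, 22 of 73 genes differed between siQKI and siRBFOX2, beside 21.5% of all genes tested. Among those averaging 1000 or more the count was 22 of 69, or 31.9%, beside 37.1% of all genes at that level. Of these calls, 2 were higher and 20 lower with siQKI, so that 90.9% were lower, beside 54.1% of the calls of all such genes, and no test of this direction was made.

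The binding motifs of the silenced factors were sought in the members' principal transcripts, since QKI and RBFOX2 bind RNA. TGCATG, the RBFOX motif, was found in MAP1LC3B (2 matches) and MAP1LC3C (1 match), all in the 3′ UTR, and in no other member. Among transcripts of other genes within 20% of their length it was found in 47.0% and 23.2%, respectively. ACTAAC, a QKI motif, was found in none of the 8 transcripts, and in 5.56% to 20.5% of transcripts of like length. The study gives the motif near QKI-regulated exons as (A/T/G)CTAAC, and its T and G forms were not sought. The RBFOX matches, the only ones to the letters sought, are shown with the motif in capitals. They describe mature transcripts and not introns, where both factors also bind.
MAP1LC3B (chr16:87404128-87404157, plus strand): tcccacaccaagTGCATGtcagttgtggag
MAP1LC3B (chr16:87404249-87404278, plus strand): cttcccagtactTGCATGgggttcactatt
MAP1LC3C (chr1:241995491-241995520, minus strand): ggtttcactcccTGCATGtgggcaggtgtc

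RefSeq promoters (GRCh38.p14, from 250 bases before to 50 after the start) were given for 7 members, with 3 starts for SQSTM1, and not for MAP1LC3A. The letters TCACGTGA (the core of the CLEAR element of TFEB and its relatives), the shorter CACGTG within it and GTAAACA (a FOXO motif) were in none of these 9 windows on either strand, and in 0.980%, 7.26% and 3.42% of 35116 promoters. TGACNNNGC, the core of the antioxidant response element, was in 1 of the 9, that of MAP1LC3B, and in 13.3% of all promoters.

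HPAF-II and PANC-1 siCtrl libraries were normalized in separate tables and were compared without a test, on counts rescaled to a total of 1000000. MAP1LC3A was the member that separated the lines most. It had 0.132, 0.0957 and 0.0258 rescaled counts in HPAF-II libraries and 3.84, 3.46 and 2.99 in PANC-1 libraries, a log2 difference of -5.39 (SE 0.61) at a pseudocount of 0.01. The size depends on the pseudocount, with -4.30 at 0.1 and -2.03 at 1, but the lines did not overlap. MAP1LC3C was listed at 0 in all 3 HPAF-II libraries, and in PANC-1 siCtrl libraries it had 0.0452, 0.0402 and 0.00583, so no fold is given.

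The abundant members were closer between lines. SQSTM1 had 578, 619 and 639 rescaled counts in HPAF-II and 1074, 1079 and 1169 in PANC-1 libraries (log2 difference -0.85, SE 0.06), and MAP1LC3B 59.3, 78.4 and 59.3 against 109, 116 and 120 (-0.82, SE 0.14). GABARAPL2 was the member that was higher in HPAF-II, at 85.1, 80.4 and 64.4 against 47.5, 51.4 and 51.3 (0.60, SE 0.13). GABARAPL1 was lower (-0.47, SE 0.20) and GABARAP slightly lower (-0.17, SE 0.08), both without overlap, and MAP1LC3B2 overlapped (-0.24, SE 0.23). GABARAPL1 was at -0.28 without HPAF-II replicate 3, GABARAP at -0.09 without HPAF-II replicate 2 and MAP1LC3B2 at -0.07 without HPAF-II replicate 1. On deposited values without rescaling, GABARAPL1 was at -0.75, GABARAP at -0.44, MAP1LC3B2 at -0.52 and GABARAPL2 at 0.33. The GABARAP branch held 84.8% ± 2.88 of the summed ATG8 counts in HPAF-II cells against 76.5% ± 1.06 in PANC-1 siCtrl cells. Per kilobase, GABARAPL2 (76.4 ± 10.8) stood above MAP1LC3B (24.4 ± 4.10) in HPAF-II cells, and remained above it over all annotated exons (25.2 against 12.4).

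**Figure D5:**
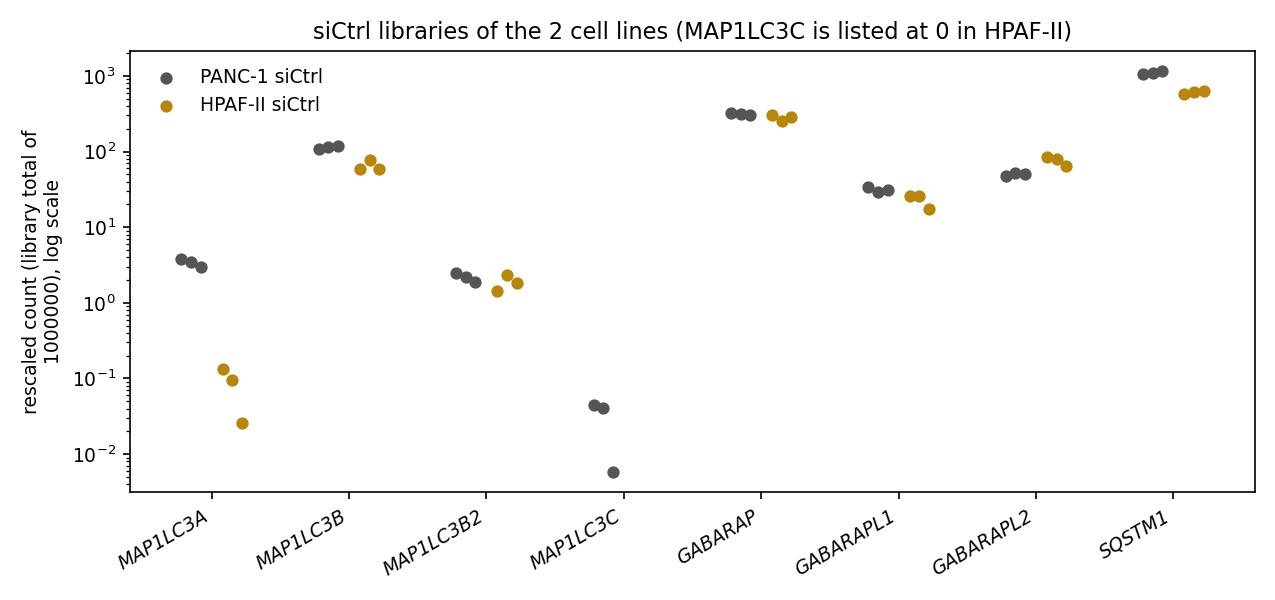
Counts rescaled to a library total of 1000000 (vertical axis, log scale) of the 8 genes in the siCtrl libraries of PANC-1 (grey) and HPAF-II (gold) cells; each point is a library, and MAP1LC3C has no HPAF-II points because it is listed at 0. MAP1LC3A lies at 2.99 to 3.84 in PANC-1 and at 0.0258 to 0.132 in HPAF-II libraries.

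Between lines, 2 of 8 members were at least 2-fold apart, MAP1LC3A and MAP1LC3C, beside 53.2% of the 24673 genes compared, and 7 of 8 did not overlap, beside 63.7%. MAP1LC3C was compared because its PANC-1 siCtrl mean, 10.4 normalized counts, just passed the minimum of 10 in either line. It enters both counts through its 0 in HPAF-II libraries. Without PANC-1 siCtrl replicate 1 or replicate 2 that mean was below 10, and MAP1LC3C was not compared. The count of members at least 2-fold apart was then 1. Without rescaling the median of all genes shifted by -0.30, and the count was 4, with MAP1LC3B and SQSTM1 added. Of the 73 pathway genes, 23 were at least 2-fold apart, 13 higher and 10 lower in HPAF-II. Among genes with counts in both lines, the largest log2 differences by list were those of MITF (-5.13), TFEB's relative in the MiT family, CCPG1 (2.37), ULK2 (-2.25), CTSD (-2.10), ATG2B (2.06), ATG14 (1.64), STX17 (1.50), ATG7 (-1.26) and KEAP1 (-0.30). BNIP3, a mitophagy receptor chosen after its values were seen, was listed at 0 in all HPAF-II libraries and had a mean of 244 rescaled counts in PANC-1 siCtrl cells. QKI itself had 14.5 ± 2.76 rescaled counts in HPAF-II and 74.2 ± 3.27 in PANC-1 siCtrl cells. RBFOX2 had 30.7 ± 3.72 and 44.8 ± 0.416, without overlap. The lines thus also differed in the levels of both factors silenced in PANC-1 cells.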

How the data were processed

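PolyA RNA of 12 libraries was sequenced as 150-base read pairs. Per the labels and the study's methods, the authors aligned reads with STAR to hg38, counted them per FAST DB gene and divided the counts by DESeq2 size factors. The factors were estimated over the 9 PANC-1 and, in a table of its own, the 3 HPAF-II libraries. The labels give STAR 2.7.5a, and the study's key resources list another version of STAR. The deposited signal values are these normalized counts. Every value was a whole multiple of 1 step per library (within 0.01), but 82.1% to 84.8% of multiples up to 30 were divisible by 3, so no count model was used and precision comes from the replicates. The PANC-1 libraries were fitted together in limma 3.58.1 (R 4.3.3; eBayes with trend, no block) on log2(normalized count + 1), for 22544 genes with a mean of at least 10, with Benjamini-Hochberg adjustment and a threshold of 0.05; the methods name no gene-level test. The procedure was tested on simulated data. Libraries of the 2 lines were rescaled to 1000000, with a pseudocount of 0.01. Tables and figures used Python 3.11.15, pandas 2.3.3, numpy 2.4.6 and matplotlib 3.10.9.

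The members and the 9 pathway lists were chosen with earlier results of these data known. Named pathway genes are, for each list and knockdown, up to 2 past the threshold with the largest log2 difference, and for the cell lines the largest per list. A gene named for either knockdown is also given for the other where it was past the threshold. The comparison with genes averaging 1000 or more was added after the data were seen. Alternatives were pseudocounts, filters, upper-quartile (75th percentile) rescaling, a replicate block, a fit of the compared groups alone, no trend and each library left out.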

Additional observations from a re-analysis of the deposited data

How the results depend on the processing

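Against siCtrl the 8 members kept their direction under the alternatives run, as did, between lines, the 7 members with a log2 difference (MAP1LC3C has none). GABARAP and GABARAPL2, both within 0.03 of 0 between siQKI and siRBFOX2, changed sign there when a library was left out. Without the mean-variance trend, the siRBFOX2 count of pathway genes was 19 in place of 33, and 12 in place of 22 pathway genes differed between siQKI and siRBFOX2. Between lines, the count of members at least 2-fold apart was 1 at pseudocounts of 0.1 and 1, 1 with a mean of at least 50, 4 with the deposited values without rescaling, and 1 to 2 when a library was left out. At pseudocounts of 0.1 and 1, MAP1LC3A alone was at least 2-fold apart (-4.30 and -2.03). MAP1LC3C was filtered out at a mean of at least 50, and without PANC-1 siCtrl replicate 1 or replicate 2. Without rescaling, MAP1LC3B was at -1.10 and SQSTM1 at -1.13. Upper-quartile rescaling gave 4225 higher and 3057 lower genes with siQKI, in place of 3362 and 4070, and 8 higher and 24 lower pathway genes, in place of 7 and 33. Leaving out a library gave 33 to 40 pathway genes with siQKI and 25 to 33 with siRBFOX2. FOXO3 with siRBFOX2 lost its call under 11 of 17 alternatives, and NFE2L2 and BECN1 with siRBFOX2 under 5 each.

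The replicate numbers did not pair the libraries: same-numbered libraries of different groups had deviations correlated at -0.0325 to 0.0235 in 9 pairs, and 3 of 9 libraries correlated best with their own number. With the replicate number as a block, 40 pathway genes were called with siQKI, 32 with siRBFOX2 and 21 between the knockdowns. The number of members at an adjusted p under 0.05 is a description from which nothing is read. It was 4 of 8 with siQKI, beside 33.0% of all genes tested, and 4 of 8 with siRBFOX2, beside 26.5%. Between the knockdowns it was 2 of 8, beside 21.5%. Of the members, 6 averaged 1000 or more normalized counts. Among all genes at that level, 54.0% were called with siQKI, 45.0% with siRBFOX2 and 37.1% between the knockdowns. The number of members past the threshold ranged from 3 to 4 with siQKI, where MAP1LC3B dropped out under 8 of 17 alternatives. With siRBFOX2 it ranged from 2 to 5, and was 2 without the mean-variance trend.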
